A study of Homo sapiens with 3 samples.

Results

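The intermediate peaks of p300/CBP occupancy described here were 150 or 200 bp wide. They were found in MDA-MB-231 cells, a triple-negative breast cancer cell line of basal B type, transfected either with a control siRNA (siCTL) or with a mix of 3 siRNAs directed against Fra-1 (siFra-1). Both siRNAs were used at 4.5 nM and cells were fixed for 7 min after 72 h. Chromatin was precipitated with one antibody that sees both p300 and CBP, and replicate precipitations were pooled before library preparation, which left 1 library and 1 peak list per condition. A peak was kept when it lay on chromosomes 1 to 22 or X and shared no base with a peak of 250 bp or wider in the other list. This left 14336 of 121929 peaks, of which 9002 came from the 82762 siCTL peaks and 5334 from the 39167 siFra-1 peaks. They were chosen by width and overlap, so the numbers that rest on these are given as a description. The lists hold positions only, without height or read number, and the depth of both libraries is unknown. With 1 library per condition no difference between siCTL and siFra-1 can be set against replicate error. Intervals below are at 95%. They allow for counting error over peaks and for no other error, and peaks that lie side by side are not independent. Fra-1 knockdown, library quality and the scaling that precedes a fixed threshold cannot be told apart in these lists.

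p300 and CBP are closely related lysine acetyltransferases that are brought to DNA by transcription factors and acetylate histones at active enhancers and promoters. Fra-1 is the product of FOSL1 and one of the Fos proteins, which pair with Jun proteins to form AP-1, a dimer that binds the word TGAGTCA. TEAD factors, which act with YAP and TAZ in the Hippo pathway, and RUNX factors bind many of the same enhancers in mesenchymal-like breast cancer cells. A narrow peak is a short run of bins with signal above the threshold of the peak caller.

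Each intermediate peak was put in 1 of 4 classes. Peaks that shared at least 1 bp with a peak of the other list, which was then necessarily narrower than 250 bp, are called siCTL shared and siFra-1 shared, and the others siCTL-only and siFra-1-only. The stretches below show what the classes hold. They are reference sequence on hg19 (plus strand, starts counted from 1), and capitals mark, on either strand, only the word or words named before each group of stretches. Other words searched may stand in them in lower case. The first pair comes from shared peaks and carries an AP-1 word (TGAGTCA or its reverse complement TGACTCA). The peak in an intron of CD44, which encodes a hyaluronan receptor of mesenchymal-like cells, lay 3.97 kb from the transcription start site (TSS), and that in an intron of the antisense transcript VIM-AS1 lay 11.8 kb from the TSS of VIM, which encodes the intermediate filament vimentin.
CD44, siCTL shared, chr11:35164302-35164501: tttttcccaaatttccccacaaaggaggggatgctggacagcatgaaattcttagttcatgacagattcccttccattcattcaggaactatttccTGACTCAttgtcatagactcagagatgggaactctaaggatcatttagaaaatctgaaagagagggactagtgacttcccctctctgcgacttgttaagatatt
VIM, siFra-1 shared, chr10:17258352-17258551: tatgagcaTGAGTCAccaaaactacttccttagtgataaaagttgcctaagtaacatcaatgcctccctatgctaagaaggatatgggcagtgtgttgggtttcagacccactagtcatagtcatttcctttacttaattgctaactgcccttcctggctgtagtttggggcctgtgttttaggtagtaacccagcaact

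The next stretches come from unshared peaks with AP-1 words. HK2 encodes hexokinase 2, PLAU encodes the urokinase-type plasminogen activator and EDN1 the vasoconstrictor peptide endothelin-1. The siCTL-only peak assigned to HK2 lay 93.2 kb from its TSS in an intron of a long noncoding RNA, nearer to the TSS of SEMA4F (86.7 kb). The siFra-1-only peak of PLAU lay 14.4 kb from its TSS between genes, with 2 AP-1 words. The HK2 peak lay 250 bp from a siFra-1 peak and the PLAU peak 550 bp from a siCTL peak. The 200 bp peak of EDN1 (chr6:12296552-12296751) lay in an exon that holds untranslated sequence, 6.06 kb from the TSS, so only the bases around its AP-1 word are shown.
HK2, siCTL-only, chr2:74968002-74968201: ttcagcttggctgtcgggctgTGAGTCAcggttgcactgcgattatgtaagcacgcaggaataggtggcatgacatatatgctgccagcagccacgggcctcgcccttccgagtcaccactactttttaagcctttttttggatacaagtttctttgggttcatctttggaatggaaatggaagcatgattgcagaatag
PLAU, siFra-1-only, chr10:75654402-75654601: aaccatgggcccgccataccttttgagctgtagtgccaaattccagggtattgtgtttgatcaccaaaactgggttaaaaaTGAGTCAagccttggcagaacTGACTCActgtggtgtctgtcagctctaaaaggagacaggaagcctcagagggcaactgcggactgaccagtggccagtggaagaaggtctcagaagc
EDN1, siFra-1-only, chr6:12296656-12296682: tgtttgtgtcTGACTCAggcgcctggc

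The last stretches show the other kinds of sequence to which the results turn. The first, 5.43 kb from the TSS of the AP-1 gene JUN in an intron of LINC01135, holds the TEAD word GGAATG and the RUNX word TGTGGT, both in reverse complement. The second lies in an intron of TNS3, which encodes the focal adhesion protein tensin 3, and holds both words side by side, 0.55 kb from a siFra-1 peak of at least 250 bp. The third is a satellite repeat on chromosome 4 in which the unit GGAAT occurs 28 times. It was chosen after its values were seen.
JUN, siFra-1-only, chr1:59255052-59255251: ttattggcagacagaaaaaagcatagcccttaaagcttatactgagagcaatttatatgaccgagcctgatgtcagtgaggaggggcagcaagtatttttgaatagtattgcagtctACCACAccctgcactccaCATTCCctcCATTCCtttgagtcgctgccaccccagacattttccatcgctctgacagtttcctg
TNS3, siFra-1-only, chr7:47522552-47522751: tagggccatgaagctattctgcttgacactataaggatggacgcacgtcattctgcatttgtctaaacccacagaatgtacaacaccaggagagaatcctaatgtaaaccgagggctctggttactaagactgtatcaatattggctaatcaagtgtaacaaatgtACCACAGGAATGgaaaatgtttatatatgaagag
Satellite, siCTL shared, chr4:49637452-49637651: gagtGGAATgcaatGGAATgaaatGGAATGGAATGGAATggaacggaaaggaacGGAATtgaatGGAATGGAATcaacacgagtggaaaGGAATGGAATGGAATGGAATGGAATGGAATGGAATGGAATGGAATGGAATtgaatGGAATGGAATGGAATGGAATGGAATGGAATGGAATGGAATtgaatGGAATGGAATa

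The same rule of nearness to listed genes gave further 200 bp peaks. With an AP-1 word these were siCTL shared peaks 55.6 kb from the TSS of KRT80 (in an intron of KRT7) and 77.6 kb from that of EPCAM, a siCTL-only peak 98.0 kb from that of MAFF in an exon of CSNK1E, and siFra-1 shared peaks 58.5 kb from that of EDN1 and 353 kb from that of JUN. With a TEAD and a RUNX word they were siCTL-only peaks 34.2 kb from the TSS of JUN and 233 kb from that of CDCP1. No link between peak and gene was tested.

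The siFra-1 list held fewer intermediate peaks than the siCTL list, and among them the deficit was largest for the unshared peaks of 150 bp. The whole siFra-1 list was also shorter, with 39167 against 82762 peaks. Intermediate peaks made up a larger part of it than of the siCTL list. Of the 9002 siCTL peaks 7352 were 150 bp and 1650 were 200 bp wide, and of the 5334 siFra-1 peaks 3841 and 1493. The ratio of siFra-1 to siCTL numbers was 0.593 (0.573 to 0.613) in all, 0.522 (0.502 to 0.543) at 150 bp and 0.905 (0.843 to 0.971) at 200 bp. Among unshared peaks it was 0.474 (0.454 to 0.495) at 150 bp and 0.795 (0.732 to 0.864) at 200 bp, against 0.386 (0.380 to 0.392) for unshared peaks of 100 bp, the narrowest in the lists. From 100 to 200 bp the unshared ratio thus came closer to 1 with each step in width, and at 250 bp the order was turned, with 325 siCTL-only and 565 siFra-1-only peaks.

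**Figure D1:**
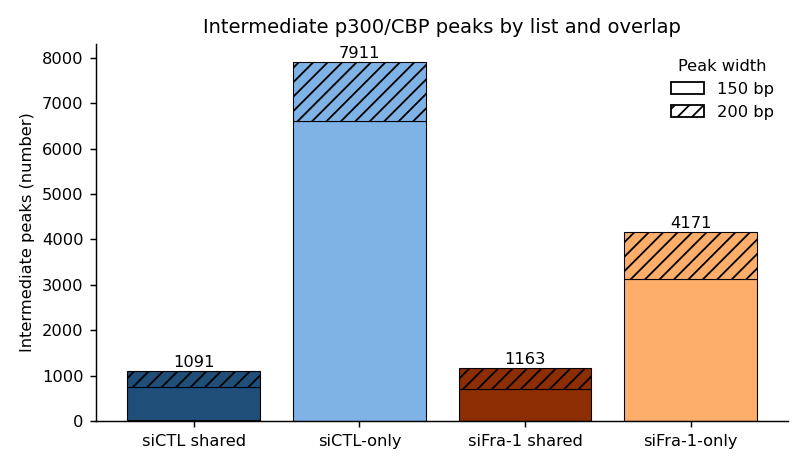
Number of intermediate peaks (vertical axis) in the 4 classes, with peaks of 150 bp plain and peaks of 200 bp hatched. The 7911 siCTL-only peaks outnumber the 4171 siFra-1-only peaks, and the shared classes hold 1091 and 1163.

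A shared base was found for 1091 of the 9002 siCTL peaks (12.1%, 11.5 to 12.8) and for 1163 of the 5334 siFra-1 peaks (21.8%, 20.7 to 22.9). Over peaks of all widths, the share with a base in common was 9.48% of the siCTL list and 19% of the siFra-1 list. With the other list set off by 10 kb to either side, 2.16% and 4.07% of the intermediate peaks met a peak. Nothing is read from these shares, since the overlap rule set them, and 1074 siCTL and 434 siFra-1 peaks of these widths had been left out for touching a wide peak of the other list.

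The partners of shared peaks were at most 200 bp wide by the overlap rule, so their widths are a description. Of the 1091 siCTL shared peaks 503 met a peak of 100 bp, 339 one of 150 bp and 249 one of 200 bp, and of the 1163 siFra-1 shared peaks 578, 373 and 212 did. In each list 158 peaks had the same start and end as their partner. The centres lay within 50 bp for 71.4% of siCTL shared peaks, with a median distance of 25 bp. The shared classes overlap each other, because 589 of the siCTL shared peaks (54.0%) met an intermediate siFra-1 peak, so they are not independent of each other.

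The shared peaks were a mixture of dispersed sites and of repeats beside the large unsequenced stretches of the genome, which lie mostly at centromeres. No more than 1 Mb from an assembly gap that was itself 1 Mb or longer lay 260 siCTL shared peaks (23.8%, 21.4 to 26.4) and 307 siFra-1 shared peaks (26.4%, 23.9 to 29.0). Among unshared peaks these were 268 siCTL-only (3.39%, 3.01 to 3.81) and 405 siFra-1-only peaks (9.71%, 8.85 to 10.6). The difference between shared and unshared peaks was 20.4 percentage points (18.0 to 23.1) in the siCTL list and 16.7 points (14.1 to 19.4) in the siFra-1 list. Between the unshared classes it was -6.32 points (-7.33 to -5.36), siCTL-only minus siFra-1-only. Shared peaks of other widths lay near gaps too. These were 15.2% (siCTL) and 13.7% (siFra-1) of those of 100 bp, and 7.27% and 9.12% of those of 250 bp and over. The overlap rule had removed peaks from the intermediate shared classes and not from these sets, so the shares are not fully alike.

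Tandem GGAAT, the unit of the human satellites II and III, marked many of these peaks. At least 2 units in a row were found in 8.80% of siCTL shared and 9.20% of siFra-1 shared peaks, against 0.480% and 1.77% in siCTL-only and siFra-1-only. Among the shared peaks near gaps the shares were 35.4% and 33.6%. The largest cluster was a stretch of 1 Mb on chromosome 4, from 49 to 50 Mb, with 59 siCTL and 89 siFra-1 peaks, of which 128 held the tandem unit. The stretch from 61 to 62 Mb on chromosome X, with 25 and 46 peaks, held none, and that from 10 to 11 Mb on chromosome 21 had 31 and 40 peaks, 23 of them with the unit. Each of the 10 fullest such stretches near a gap except that from 91 to 92 Mb on chromosome 2 (25 against 22) had more siFra-1 than siCTL peaks, the opposite order to that of the lists as a whole.

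The AP-1 word was more frequent in shared than in unshared peaks of both lists. In the 200 bp around the centre it was found in 17.2% (15.1 to 19.6) of siCTL shared, 6.33% (5.82 to 6.89) of siCTL-only, 17.6% (15.5 to 19.9) of siFra-1 shared and 9.21% (8.37 to 10.1) of siFra-1-only peaks. Of all 200 bp windows of the genome without unknown bases 3.05% held it, and windows moved by 2 kb from the peaks held it in 2.28% to 3.10% of cases. All 4 classes were thus above both backgrounds. The difference between shared and unshared peaks was 10.9 points (8.70 to 13.3) in the siCTL list and 8.42 points (6.15 to 10.9) in the siFra-1 list. The TEAD word GGAATG, which also matches the satellite unit, differed more, by 13.5 points (10.9 to 16.3) and 9.0 points (6.22 to 11.9).

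Near assembly gaps the AP-1 word was rare, as it was found in 1 of 260 siCTL shared and 1 of 307 siFra-1 shared peaks. Without the peaks near gaps its shares were 22.5% and 23.8% in the shared classes and 6.45% and 10.1% in siCTL-only and siFra-1-only peaks. The differences between shared and unshared peaks were then 16.1 points (13.3 to 19.1) and 13.7 points (10.8 to 16.8), the largest in both lists of the 12 words searched. In the shared classes the words were most frequent within 100 bp of the centre, where the 4 bins of 50 bp held 1.11 to 1.47 words per peak per kb, against 0.168 to 0.374 in the outermost bins at about 500 bp. In siCTL-only and siFra-1-only peaks the bins next to the centre held 0.377 to 0.450 and 0.589 to 0.595. At least 2 words were present in 22 of 831 siCTL shared, 58 of 7643 siCTL-only, 23 of 856 siFra-1 shared and 22 of 3766 siFra-1-only peaks. For 2 or more words the siFra-1-only share was thus not above that of siCTL-only.

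**Figure D2:**
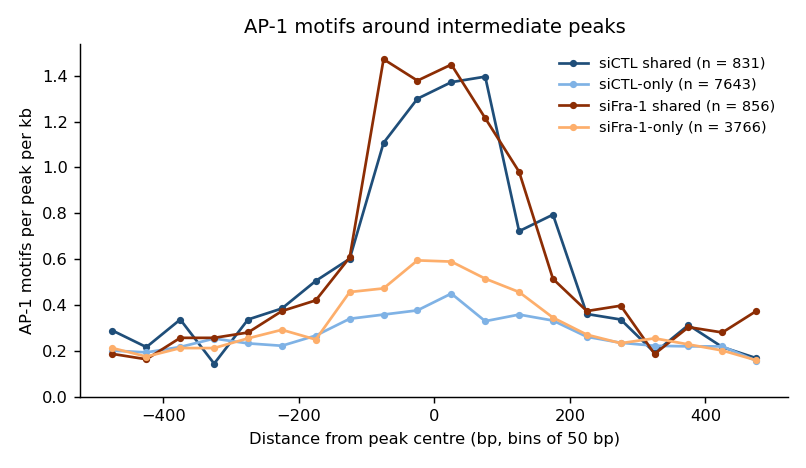
AP-1 words per peak and kb (vertical axis) by distance from the peak centre in bins of 50 bp, for intermediate peaks more than 1 Mb from large assembly gaps. All 4 lines are highest within 100 bp of the centre, and both shared classes stand above both unshared classes there.

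The unshared siFra-1 peaks held AP-1 words more often than the unshared siCTL peaks. The difference, siCTL-only minus siFra-1-only, was -2.87 points (-3.92 to -1.86), and -3.64 points (-4.77 to -2.55) without peaks near gaps. It kept this direction at both widths, with 5.50% against 7.85% at 150 bp and 10.6% against 13.3% at 200 bp. In the unshared siFra-1 peaks words of other factors were more frequent too.

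Of the 12 words searched, 7 were less frequent and 1 was more frequent in siCTL-only than in siFra-1-only peaks with an interval of the difference that leaves out 0, and for the other 4 (CRE TGACGTCA, ETS CCGGAAGT, MYC CACGTG and CTCF) the interval included 0. The TEAD word GGAATG occurred in 12.5% of the peaks in siCTL-only and 18.9% in siFra-1-only, a difference of -6.43 points (-7.84 to -5.05), with 10.6% of all genome windows holding it. As GGAATG also matches tandem GGAAT, the same difference was taken without peaks near gaps, where it was -5.69 points (-7.14 to -4.28). The RUNX word TGTGGT was found in 15.4% and 19.5%, a difference of -4.03 points (-5.49 to -2.61), with 13.5% of genome windows. The siFra-1-only shares of both words exceeded those of genome windows by more than the siCTL-only shares did. Windows moved by 2 kb held GGAATG in 10.8% (siCTL-only) and 12.7% (siFra-1-only) of cases, so part of the TEAD difference was also present beside the peaks. For TGTGGT the moved windows held 13.5% in either class.

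Some FOX factors are pioneer factors that open chromatin. The FOX word TGTTTAC stood in 2.98% of the peaks in siCTL-only and 6.02% in siFra-1-only, a difference of -3.03 points (-3.88 to -2.24). The siCTL-only share was close to the 3.11% of genome windows. The word of C/EBP factors, TTGCNNAA, was found in 9.38% and 11.8% (-2.39 points, -3.58 to -1.24), with 10.7% of genome windows, so that siCTL-only peaks lay below this background. NF-kB (3.84% and 4.77%, -0.928 points, -1.73 to -0.175) and the SP/KLF word GGGCGG (4.97% and 6.16%, -1.19 points, -2.09 to -0.341) had the same order. The opposite order was found for CACCTG, the E-box of the repressors ZEB and SNAI, with 18.8% and 13.9% (4.90 points, 3.53 to 6.25) and 14.6% of genome windows. For these 8 words the direction was the same without peaks near gaps, again with intervals that leave out 0. Flanking windows moved by 2 kb held CACCTG in 16.8% (siCTL-only) and 15.8% (siFra-1-only) of cases, a smaller gap than that at the peaks.

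Between the shared classes the interval of the difference included 0 for all 12 words, with or without the peaks near gaps. The sets partly hold the same sites, while the interval takes them as independent. Likeness is thus partly built in, and nothing is concluded from it. TEAD words were found in 26.0% and 27.9% of siCTL shared and siFra-1 shared peaks, in 19.7% and 21.6% without peaks near gaps, and in 46.2% and 45.6% of those near gaps. Against siCTL-only peaks, siCTL shared peaks away from gaps held AP-1, TEAD (7.53 points, 4.86 to 10.5), SP/KLF (3.6 points, 1.80 to 5.76) and ETS words (0.502 points, 0.0406 to 1.39) more often. Against siFra-1-only peaks, siFra-1 shared peaks away from gaps held AP-1 and TEAD words (3.72 points, 0.803 to 6.83) more often and FOX words (-1.87 points, -3.33 to -0.0967) less often. RUNX words did not differ beyond the interval in either list (2.01 points, -0.562 to 4.86, and -0.926 points, -3.77 to 2.14).

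**Figure D3:**
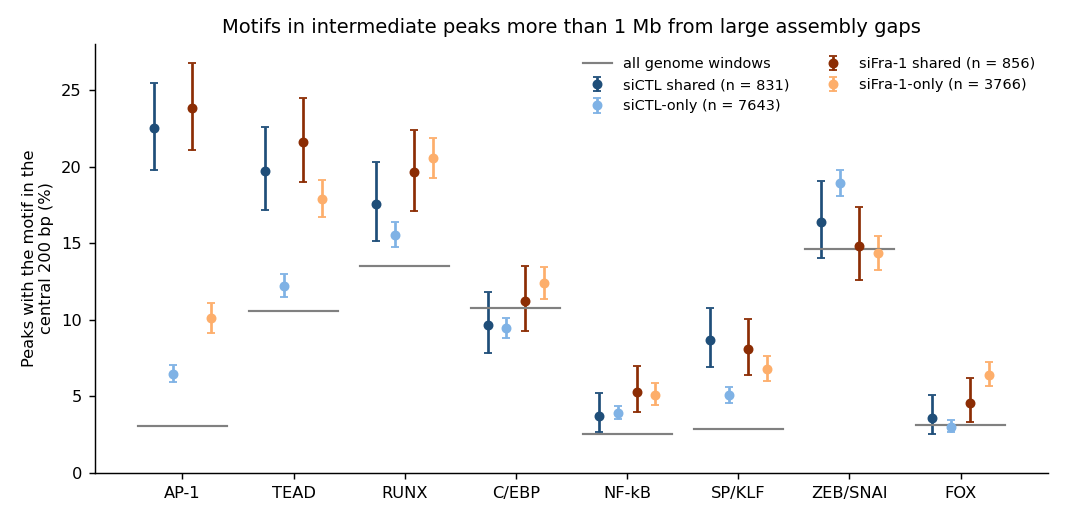
Share of intermediate peaks with each word in the central 200 bp (vertical axis, %) for 8 of the 12 words and the 4 classes, without peaks within 1 Mb of large assembly gaps. Points are shares, bars are 95% Wilson intervals and grey lines are the shares of all 200 bp genome windows. AP-1 is found in 22.5% and 23.8% of the shared classes, and the siCTL-only points lie below the siFra-1-only points for each word but ZEB/SNAI.

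The AP-1 order of the unshared classes turned around just outside the width limit. In siCTL-only peaks the share with the word was 4.06% at 100 bp, 5.50% at 150 bp, 10.6% at 200 bp, 19.1% at 250 bp and 35.3% from 300 to 450 bp. In siFra-1-only peaks it was 4.79%, 7.85%, 13.3%, 12.9% and 13.0%. Hence the share grew with width throughout in the first class and did not pass the level of 200 bp in the second. At 100 bp the difference was -0.734 points (-1.04 to -0.437), and at 250 bp and over 13.2 points (9.39 to 17.3), against -2.87 for the intermediate peaks.

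No such turn was seen for the 5 other words compared across widths. At 250 bp and over the TEAD difference was -10.1 points (-13.7 to -6.13), that of RUNX -11.5 points (-15.1 to -7.56), that of FOX -8.04 points (-10.1 to -5.65), that of C/EBP -6.61 points (-9.50 to -3.34) and that of ZEB/SNAI 12.1 points (8.63 to 15.9). At 100 bp they were -1.61, -0.400, -0.735, -0.372 and 0.833 points, with an interval that included 0 for RUNX (-0.923 to 0.115) and C/EBP (-0.814 to 0.0621). The values of the intermediate peaks thus lay between those of the narrowest and the wide peaks for all 5 words. In the shared classes the AP-1 share was 14.9% at 150 bp, 22.3% at 200 bp and 27.6% at 250 bp in the siCTL list. In the siFra-1 list it was 16.4%, 19.6% and 26.7%. Shared peaks of 150 and 200 bp that touch a wide peak of the other list are left out here, while those of 250 bp are kept. The shared values therefore compare unlike sets, and no trend with width is read from them.

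**Figure D4:**
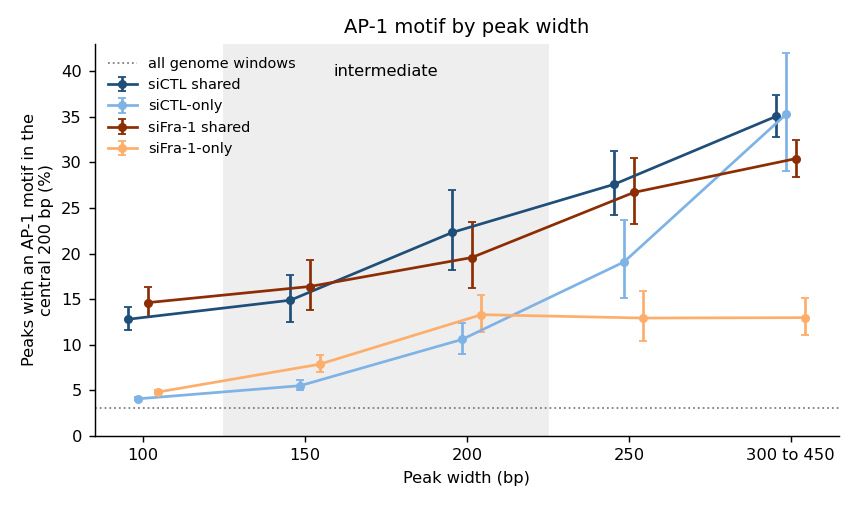
Share of peaks with an AP-1 word in the central 200 bp (vertical axis, %) by peak width (bp), with 95% Wilson intervals. The shaded widths are the intermediate peaks, and the dotted line is the 3.05% of all genome windows. In the shared lines the shaded widths leave out peaks that touch a wide peak of the other list, which are kept at the other widths. The siCTL-only line lies below the siFra-1-only line at 200 bp (10.6% and 13.3%) and above it at 250 bp (19.1% and 12.9%).

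Most intermediate peaks lay far from promoters. A window of 3 kb centred on the TSS of a protein-coding gene held or touched 69 siCTL shared (6.32%, 5.03 to 7.93), 414 siCTL-only (5.23%, 4.76 to 5.75), 62 siFra-1 shared (5.33%, 4.18 to 6.78) and 260 siFra-1-only ones (6.23%, 5.54 to 7.01). The difference between siCTL-only and siFra-1-only was -1.0 points (-1.91 to -0.137). At 200 bp alone it was 0.367 points (-1.65 to 2.32), so its direction rested on the 150 bp peaks. Between siCTL shared and siCTL-only peaks it was 1.09 points (-0.303 to 2.76). The interval left out 0 without peaks near gaps (2.91 points, 1.14 to 5.04) and at 500 bp or more from wide peaks of the other list (1.72 points, 0.168 to 3.6). It also left out 0 with peaks within 200 bp counted as shared (1.58 points, 0.335 to 2.99) and with a promoter window of 1 kb (1.30 points, 0.229 to 2.67). It included 0 at 150 bp alone (1.44 points), at 200 bp alone (-0.350 points) and with an overlap of 50% of both peaks (0.677 points). The same held with a promoter window of 5 kb (0.896 points) and with the TSS of all genes (1.17 points). Between siFra-1 shared and siFra-1-only peaks the difference was -0.902 points, and 0.366 points without peaks near gaps. The interval included 0 in both cases.

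Introns held 41.6%, 56.1%, 40.2% and 51.7% of siCTL shared, siCTL-only, siFra-1 shared and siFra-1-only peaks, exons 8.71%, 8.63%, 7.65% and 8.46%, and the space between genes 49.7%, 35.2%, 52.2% and 39.8%. Much of the larger intergenic share of the shared classes went with the peaks near gaps, without which the shared minus unshared difference was 1.49 points (-1.86 to 4.97) and 1.73 points (-1.79 to 5.34). The median distance to the TSS of a protein-coding gene was 77.0, 51.5, 90.6 and 61.0 kb, and 46.4, 48.9, 47.8 and 49.7 kb without peaks near gaps. The mean GC content of the central 200 bp was 46.9%, 45.8%, 46.5% and 46.2%, against 42.8% to 43.3% in windows moved by 2 kb. All 4 classes were thus richer in GC than their surroundings.

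Peaks at promoters had another sequence make-up from the rest. Their GC content was 55.1% to 58.6% in the 4 classes, against 45.3% to 46.1% elsewhere, and they held 8.14 to 10.8 CpG per 200 bp against 2.54 to 3.57. The AP-1 word was found in 4.35% of the siCTL shared and 4.35% of the siCTL-only promoter peaks, and in 8.06% and 6.92% of the siFra-1 shared and siFra-1-only ones. Elsewhere the shares were 18.1%, 6.44%, 18.2% and 9.36%. The promoter shares of the shared classes rest on 3 of 69 and 5 of 62 peaks, and the difference between promoters and other sites was not tested.

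Intermediate peaks, and shared ones above all, lay beside other peaks. A peak of at least 250 bp of the same list was found within 10 kb of 36.2% of siCTL shared and 10.4% of siCTL-only peaks, a difference of 25.8 points (22.9 to 28.7), and of 44.2% of siFra-1 shared and 27.1% of siFra-1-only peaks, a difference of 17.1 points (14.0 to 20.3). Without peaks near gaps the differences were 16.4 points (13.4 to 19.6) and 7.35 points (4.02 to 10.8). Within 500 bp lay any other peak of the same list for 41.2%, 12.8%, 44.9% and 25.5% of the classes, in the order siCTL shared, siCTL-only, siFra-1 shared and siFra-1-only. With the list moved by 10 kb these shares were 19.8%, 8.17%, 19.8% and 8.97%.

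Unshared did not always mean remote from the other list. Of the siCTL-only peaks 9.64% (9.01 to 10.3) had a siFra-1 peak within 500 bp, and of the siFra-1-only peaks 21.0% (19.7 to 22.2) had a siCTL peak, against 4.85% and 10.9% with the other list moved by 10 kb. The siFra-1-only peak chr2:28583802-28584001, 31.4 kb from the TSS of the AP-1 gene FOSL2, is an example, since a siCTL peak abutted it with a gap of 0 bp. By contrast, the siFra-1-only peak in EDN1 lay 6050 bp from the nearest peak of the other list.

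The density of intermediate peaks varied widely between chromosomes. In the siCTL list it went from 0.457 per Mb on X to 8.23 per Mb on chromosome 20, and in the siFra-1 list from 0.615 to 3.87 per Mb on the same chromosomes. Spearman's rho of the densities in the lists was 0.889 over 23 chromosomes, and between intermediate and 100 bp peaks it was 0.983 in the siCTL and 0.876 in the siFra-1 list. These values describe chromosomes that share copy number, gene content and the library. The ratio of siFra-1 to siCTL peaks was below 1 on 21 of 23 chromosomes, with an interval below 1 on 18, from 0.469 (0.40 to 0.550) on chromosome 20. It was 1.03 (0.772 to 1.38) on chromosome 21 and 1.35 (0.977 to 1.87) on X. The whole lists hold 82762 siCTL and 39167 siFra-1 peaks, so ratios below 1 are not particular to intermediate peaks.

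**Figure D5:**
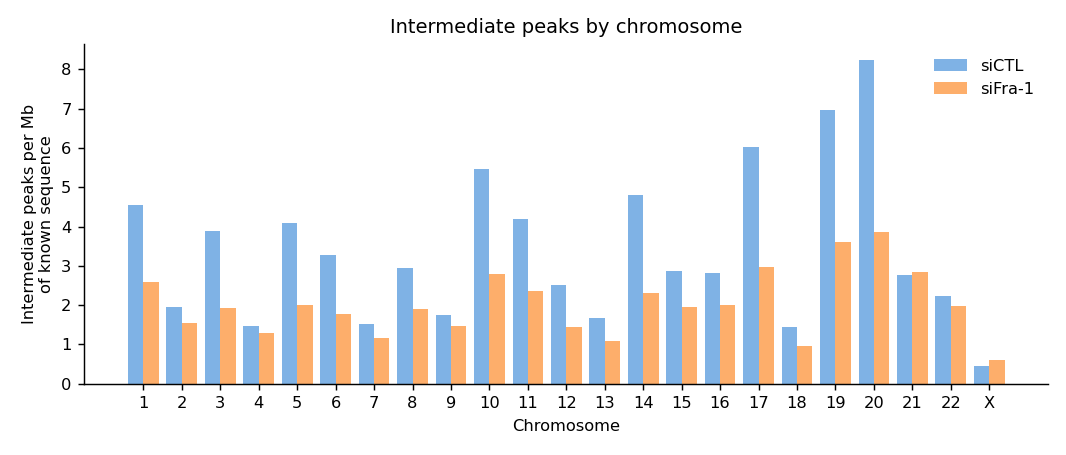
Intermediate peaks per Mb of known sequence (vertical axis) on each chromosome in the siCTL and the siFra-1 list. Chromosomes 19 and 20 have the highest bars in both lists, and the siFra-1 bar is the taller one on chromosomes 21 and X alone.

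Of 20098 protein-coding genes, 48.6% had a siCTL and 30.9% a siFra-1 intermediate peak within 100 kb of the TSS. Counted over all genes, a peak once for each gene it was near, the ratio of siFra-1 to siCTL peaks was 0.520. The genes with the most siCTL peaks were PDE4DIP, which encodes a Golgi and centrosome scaffold (18 siCTL and 8 siFra-1 peaks), TAF11L7 of a repeated gene family (13 and 8), DNTTIP2, which encodes a nucleolar protein (12 and 2), the stress-response gene GADD45B (11 and 4) and COX4I2, which encodes a subunit of cytochrome c oxidase (11 and 5). Those with the most siFra-1 peaks were the olfactory receptor gene OR4C46 (12 siFra-1 and 4 siCTL), TPTE (9 and 9), PDE4DIP, TAF11L3 (8 and 12) and the homeobox gene TPRX2 (8 and 10). Several of these genes lie beside centromeres or in gene families with near-identical copies, in which reads are hard to place.

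Contacts were mapped by the authors from the promoters of genes whose expression depended on Fra-1. Near these 34 genes lay 73 siCTL and 49 siFra-1 intermediate peaks, a ratio of 0.671 (0.458 to 0.977). Near the 16 genes that Fra-1 raised the numbers were 33 and 13 (0.394, 0.190 to 0.769), and near the 18 that it lowered 40 and 36 (0.900, 0.557 to 1.45). The interval of the first set includes the ratio over all genes and leaves out 1, that of the second does the reverse, and they overlap each other. Of the 16 raised genes 11 had a lower number in the siFra-1 list and 1 a higher one, and of the 18 lowered genes 8 had a lower and 6 a higher one. Over all protein-coding genes the number was lower for 7295 and higher for 2722.

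Single genes of these sets differed by a few peaks. CDCP1, which encodes a transmembrane glycoprotein of carcinoma cells, had 8 siCTL and 3 siFra-1 peaks, of which 1 in each list was shared. SMAD6, an inhibitor of BMP signaling, had 0 siCTL and 4 siFra-1 peaks, and also 0 and 4 peaks of 250 bp or wider, while 12 siCTL and 4 siFra-1 peaks of 100 bp lay near it. ID1, which encodes an inhibitor of basic helix-loop-helix factors, had 9 and 5. EDN1 had 3 and 6 intermediate peaks and no peak of 250 bp or wider in either list. At FOSL1, named here as the gene of the targeted protein and not for its numbers, both lists held 3 peaks, none of them shared.

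Among the 12 AP-1 family genes the totals were 25 siCTL and 18 siFra-1 peaks (ratio 0.720, 0.370 to 1.37), with fewer siFra-1 peaks at 4 genes and more at 3. MAFF, which encodes a small Maf protein, had 4 and 0, and ATF3, a stress-induced partner of Jun, had 2 and 5. The 13 Hippo and TEAD genes had 16 and 11 (0.688, 0.288 to 1.58), fewer at 4 and more at 4 genes, with 3 and 0 at TEAD2, 4 and 1 at TEAD3, 3 and 0 at TEAD4 and, the other way around, 0 and 2 at ANKRD1, a target of YAP. The 6 RUNX genes had 5 and 3 (0.60, 0.0932 to 3.08), with 3 and 1 at RUNX2. The 16 TGF-beta genes had 18 and 16 (0.889, 0.424 to 1.85), fewer at 7 and more at 4 genes, with SMAD6 as above and 4 and 2 at TGFBR3. All of these intervals included the ratio of 0.520 over all genes, and numbers this small say little about a single gene.

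Marker genes of the cell type were read by the number of peaks near them, which is not expression. Near the 14 mesenchymal or basal B genes lay 25 siCTL and 15 siFra-1 intermediate peaks (0.60, 0.294 to 1.18), and near the 14 luminal genes 2 and 9 (4.50, 0.931 to 42.8). In siCTL cells 10 of the mesenchymal (71.4%) and 2 of the luminal genes (14.3%) had a peak, and in siFra-1 cells 9 (64.3%) and 7 (50%), against 48.6% and 30.9% of all protein-coding genes. The number was lower in the siFra-1 list for 7 of the mesenchymal genes, equal for 5 and higher for 2. VIM had 4 and 2, the repressor gene ZEB1 2 and 0, CD44 5 and 3, the receptor kinase gene AXL 4 and 2, and ITGB1, which encodes integrin beta 1, 3 and 1. The other way around, PLAU had 2 and 3 and MSN, which encodes the membrane linker moesin, 0 and 1. For the luminal genes it was higher for 7 and lower for 1, with 0 siCTL and 2 siFra-1 peaks at the keratin gene KRT8, whose window overlaps that of KRT18. As in the other gene lists, a peak was counted once for each gene it was near. The total of 9 and the 7 genes with more siFra-1 peaks can therefore hold the KRT8 and KRT18 locus more than once. The interval for the luminal genes takes all counts as separate peaks. It included 1 but left out the ratio over all genes, and it rests on few peaks.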

How the data were processed

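Peak lists of p300/CBP ChIP-seq were analysed for 1 siCTL and 1 siFra-1 library. An input sample was not analysed here. According to the methods of the study and the names of the lists, the authors kept uniquely aligned reads (BWA-backtrack in the methods, Bowtie2 in the submitters' processing notes) on hg19, binned the signal with PASHA at 50 bp, scaled it, subtracted the background and called peaks in the Integrated Genome Browser at a threshold of 25 with a gap and run of 50 bp. The deposited values are starts and ends only. Depth, enrichment and scaling act on peak number and width as occupancy does, and the lists do not separate them.

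Members were taken by width and overlap, and 1508 peaks touching a wide peak of the other list were left out. Members, words, gene lists and alternatives were chosen with earlier results of these data known. Lists were read as BED intervals, and printed starts are 1 bp too high if the authors counted from 1. No peak passed a chromosome end of GRCh37 (0 of 121929), which was read with GENCODE release 44 lifted to it. The 12 words were searched on either strand of the central 200 bp. CRE, MYC and AP-1 words do not contain each other, while GGAATG matches tandem GGAAT. NF-kB and CTCF were matched as consensus words and are given by name. Named peaks were the 200 bp peaks with an AP-1 word, over 1 Mb from large gaps and off chromosome 8, that lay nearest to a gene of the 8 lists, 3 in each class, with 2 per unshared class holding the TEAD and RUNX words. Named genes were the 5 with most peaks in each list and, in each gene list, those whose numbers differed most, by at least 2. One peak and one gene that these rules name are not reported here. All 106 genes of the lists matched.

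Shares have Wilson, differences Newcombe and ratios Clopper-Pearson intervals at 95%. With 1 library per condition no p-value was computed. Functions in Python 3.11.15 (numpy 2.4.6, pandas 2.3.3, scipy 1.17.1, matplotlib 3.10.9) were tested on simulated data and against bedtools 2.31.1. Alternatives were each width alone, no peaks near gaps, a distance of 500 bp from wide peaks, other overlap rules, motif windows, promoter windows and gene windows.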

Additional observations from a re-analysis of the deposited data

How the results depend on the processing

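Of 102 alternative values for 13 results, 68 lay within the interval of the value reported, 33 outside it and 1 had the other direction. The other direction was counted only where the interval of the value reported left out 0 or, for ratios, 1. No paired analysis was possible because each condition had 1 library, and for the same reason no library could be left out. At 150 bp alone the number ratio was 0.522, the overlaps were 10.1% (siCTL) and 18.4% (siFra-1) and the unshared TEAD difference was -5.04 points. At 200 bp alone these were 0.905, 20.9%, 30.5% and -10.7 points. The promoter differences were then 0.367 points between unshared classes and -0.350 points in the siCTL list. Both had the opposite sign to the value reported. The second is counted as outside, since the interval of its reported value included 0. The wide neighbour differences at 200 bp were 18.2 (siCTL) and 13.7 points (siFra-1), and the viewpoint ratio was 1 (0.442 to 2.26). Without peaks within 1 Mb of large gaps the number ratio was 0.545, the overlaps were 9.81% and 18.5%, the AP-1 differences 16.1 and 13.7 points, the siCTL promoter difference 2.91 points and the wide neighbour differences 16.4 and 7.35 points. With members at least 500 bp from wide peaks of the other list the overlaps were 10.7% and 20.6%, the siCTL AP-1 difference 13.3 points and the siCTL wide neighbour difference 18.3 points. With an overlap of 50% of both peaks the overlaps were 9.66% and 17.6%, and with peaks within 200 bp counted as shared they were 17.7% and 32.4%, with wide neighbour differences of 29.8 and 25.8 points. In windows of 400 bp the siCTL AP-1 difference was 14.1 points and the unshared TEAD difference -8.08 points. For wide peaks within 2 kb the siCTL difference was 17.9 points. The unshared AP-1 and RUNX differences stayed within their interval under all alternatives run (AP-1 from -3.83 to -2.27 points, RUNX from -5.03 to -3.60 points). The interval of the viewpoint ratio included 1 without peaks near gaps (0.688, 0.457 to 1.03) and within 50 kb (0.763, 0.454 to 1.27), and that of the unshared promoter difference included 0 with windows of 1 kb (-0.595 points) and 5 kb (-0.850 points). The cause of these shifts was not tested. Depth and peak height were not given, so a peak that narrowly missed the threshold in one list cannot be told from one without signal.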

Other observations

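Beyond satellites, other repeat words recurred in the intermediate peaks. A word of 20 bases from the Alu element, the commonest of those counted, was found in 220 of the 7911 siCTL-only peaks (2.78%), against 2.27% of their windows moved by 2 kb. In siFra-1-only peaks an Alu word was found in 73 of 4171 (1.75%), against 2.37% of moved windows. A word of 20 bases from alpha satellite, the repeat of human centromeres, was found in 31 of the 1091 siCTL shared peaks (29 of them near gaps). In siFra-1 shared peaks it was found in 37 of 1163 (34 near gaps). These counts are for a single word and do not give the share of peaks with alpha satellite. A run of CA dinucleotides was found in 0.468% of the peaks in siCTL-only and 0.815% in siFra-1-only, against 0.468% and 0.444% of moved windows. These words were picked after counting all words in the peaks, and no difference between them was tested.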
